A study of Mus musculus with 9 samples.

Results

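The AP-1 transcription factor genes were examined in the skin transcriptome of mice lacking *Supt6* in keratinocytes. The 10 genes were chosen by name and cover the Fos family (*Fos*, *Fosb*, *Fosl1* and *Fosl2*), the Jun family (*Jun*, *Junb* and *Jund*) and 3 further bZIP factors, *Batf*, *Atf3* and *Maff*. All 10 were among the 17943 genes of the deposited table, and all 10 passed the filter on low counts together with 16426 genes in all. The libraries are bulk RNA-Seq of whole skin from 5 control and 4 *Supt6*-KO mice, harvested on day 10 after the final injection. Control mice carried *Supt6* fl/fl without Cre and received corn oil, although the sample labels call them wild-type. *Supt6*-KO mice were K14-CreERT; *Supt6* fl/fl and received tamoxifen, so that deletion, Cre and tamoxifen cannot be told apart. The keratin 14 promoter drives CreERT in basal keratinocytes and the outer root sheath, and cells that descend from them inherit the deletion, whereas skin cells of other lineages are not targeted. The study describes dorsal skin and the labels name ear. Treatment was given in the first resting phase (telogen) of the hair cycle, and age in days and sex are not given in the sources used here.

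AP-1 is a dimer of bZIP proteins that binds the TRE, with the letters TGAGTCA, or the related cAMP response element (CRE), with the letters TGACGTCA. Jun proteins pair with each other or with a Fos protein, whereas Fos proteins need a Jun partner. Many of these genes are immediate early genes, which are transcribed within minutes of growth factor, cytokine or stress signals through MAP kinases, serum response factor and CREB. In epidermis the family acts in proliferation, terminal differentiation and inflammation, and *Supt6* encodes SPT6, a histone chaperone that travels with elongating RNA polymerase II.

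Promoter letters are shown first because 6 of the 9 members with a RefSeq promoter window shared a core of the CRE, the letters TGACG on either strand. The windows are the 250 bases before each RefSeq start site on GRCm38.p6. This core was present in *Fos*, *Fosb*, *Junb*, *Batf*, *Atf3* and *Maff*, and in 19.8% of all 27025 genes with a window (17.8% of 32851 windows). Each sequence below runs 5′ to 3′ on the strand of the gene, over 30 bases, with the matching letters in capitals.
Fos, first base of the core at -129 from the start site, chr12:85473748-85473777, plus strand: tggggcgtagagtTGACGacagagcgcccg
Fos, core at -66, chr12:85473811-85473840, plus strand: cagttccgcccagTGACGtaggaagtccat
Fosb, core at -60, chr7:19310089-19310118, minus strand: atggagttgcgggTGACGcaagcgcggggg
Junb, core at -106, chr8:84978838-84978867, minus strand: cgcttcctgacagTGACGcgagccgcctcc
Batf, core at -98, chr12:85686609-85686638, plus strand: ctttctaacttgtTGACGtttccgcccatg
Atf3, core as its reverse complement at -7, chr1:191183334-191183363, minus strand: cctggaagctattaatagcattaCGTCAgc
Maff, full CRE at -29, chr15:79347480-79347509, plus strand: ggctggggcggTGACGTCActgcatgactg

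The full CRE stood in the *Maff* window and in no other member's window, against 1.77% of genes, and it contains the core on both strands. A second *Maff* window, before another start site, held the core alone. The *Fosb* and *Maff* stretches lie inside the outermost bounds of the RefSeq genes, since both genes have an alternative start upstream. Neither the TRE (5.16% of genes) nor the CArG box bound by serum response factor (1.62% of genes) was matched in any window of the 9 members, which says only that these letters are not within 250 bases. GC boxes, with the letters GGGCGG on either strand, were present in 7 of 9 members and 35.4% of genes. The 6 members with the core included 2 that were called higher in *Supt6*-KO skin (*Batf* and *Maff*), 1 called lower (*Fosb*), *Junb*, which rose by under 2-fold, and *Fos* and *Atf3*, which did not pass the test.

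Total estimated counts were 29627341 to 30491197 per control mouse (median 29870087) and 30597189 to 30967107 per *Supt6*-KO mouse (median 30794136). Values between mice are given as CPM, the counts scaled to a common library size, after TMM scaling, and folds are edgeR estimates with their standard error (SE). TMM factors were 1.198 to 1.315 in controls and 0.674 to 0.91 in *Supt6*-KO mice, so the scaling weighs on every fold. The median shift over all genes tested was -0.07 on the log2 scale under TMM and -0.76 with library totals in place of TMM. Principal component 1 held 80.8% of the variance and separated the groups, while component 2 (8.23%) set control 5 and *Supt6*-KO 4 apart from the other mice at -60.8 and -40.1. Folds, counts of calls and the ratios below were therefore also computed without these 2 mice. Replicates are separate mice by their labels.

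*Supt6* itself (chr11:78206749-78245972) had 74.5, 56.6, 63.6, 91.1 and 96.7 CPM in the controls and 28.6, 24.1, 21.9 and 28.4 CPM in the *Supt6*-KO mice. The groups did not overlap, and the *Supt6*-KO mean was 33.7% of the control mean (log2 fold change -1.57, SE 0.18, edgeR adjusted p = 1.31e-05). With the length correction it was -0.81 (edgeR adjusted p = 0.0016), under 2-fold. Keratinocyte genes fitted skin, and *Krt14*, whose promoter drives the Cre, had a mean of 3379 CPM in control mice and 4730, 3114, 3962 and 9613 CPM in the *Supt6*-KO mice, with the groups overlapping (edgeR adjusted p = 0.0633). Cartilage genes were present as well. Their summed level was 599, 490, 445, 683 and 980 CPM in the controls and 77.3, 83.8, 75.8 and 86.3 CPM in the *Supt6*-KO mice, with *Acan*, the core proteoglycan of cartilage, the highest by the control mean and *Hapln1* by the *Supt6*-KO mean. In whole tissue, fewer cells of a type and less RNA per cell cannot be told apart.

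Of the 10 AP-1 genes, 2 were called higher in *Supt6*-KO skin (*Batf* and *Maff*), 2 were called lower (*Fosb* and *Jund*) and 6 were not called. A call needed an adjusted p under 0.05 and at least a 2-fold change, and by that rule 20.9% of all genes were called higher, 24.9% lower and 45.8% in either direction. The share of members called, 40%, was near that background. With no limit on size, 3 members rose, *Junb* being the third, and 3 fell, *Fosl2* being the third, where 34.1% of all genes rose and 36.8% fell. These same 6 genes were the ones whose groups did not overlap, 3 with *Supt6*-KO above (28.9% of all genes) and 3 below (31.8%). The median log2 fold change of the members was -0.31 against -0.07 for all genes, and the median absolute log2 fold change was 0.91 against 0.96.

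**Figure D1:**
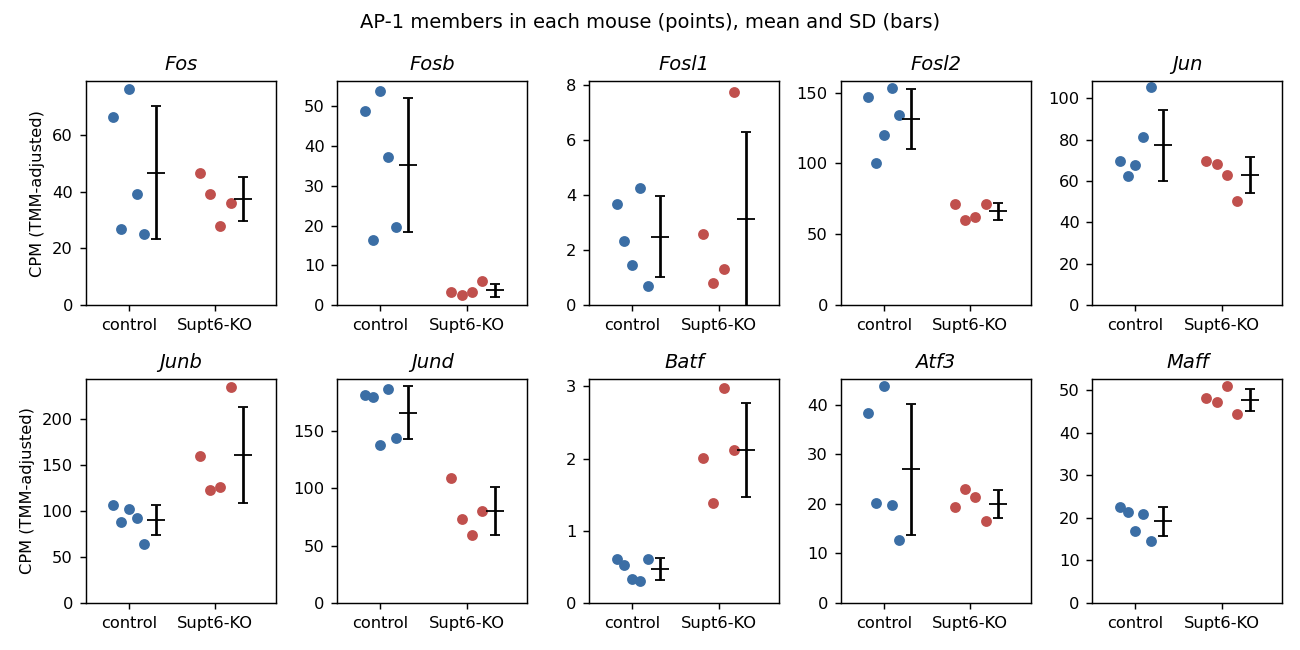
TMM-adjusted counts scaled by library size of the 10 AP-1 genes on linear axes that start at 0, with 1 point per mouse (blue, 5 control; red, 4 *Supt6*-KO) and the mean and SD as a bar beside each group (the SD of *Fosl1* in *Supt6*-KO mice exceeds its mean, so its bar is cut at 0). *Fosb*, *Fosl2* and *Jund* lie wholly below the controls in *Supt6*-KO mice, *Junb*, *Batf* and *Maff* wholly above, and *Fos*, *Fosl1*, *Jun* and *Atf3* overlap.

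*Fosb* showed the largest fold of the 10. Its protein is a Fos family activator whose splice form ΔFosB lacks the C-terminal activation region and is long-lived. *Fosb* (chr7:19302696-19310118) had 48.9, 16.5, 53.8, 37.2 and 19.8 CPM in the controls and 3.26, 2.45, 3.20 and 6.11 CPM in the *Supt6*-KO mice. The controls spread over more than 3-fold, yet the lowest of them stood above every *Supt6*-KO mouse. The *Supt6*-KO mean of 3.75 ± 1.61 CPM (SD, n = 4) was 10.7% of the control mean of 35.2 ± 16.8 CPM (SD, n = 5). On the log2 scale the fold change was -3.22 (SE 0.42, edgeR adjusted p = 3.57e-05). It stayed between -2.94 and -3.86 under every alternative that kept all mice, and was -3.71 without control 5 and *Supt6*-KO 4. Counts per gene do not separate the splice forms.

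*Fosl2*, which encodes FRA2, also fell. *Fosl2* (chr5:32136472-32157840) had 147, 101, 120, 153 and 134 CPM in the controls and 71.2, 60.1, 62.0 and 71.7 CPM in the *Supt6*-KO mice. No mouse of either group reached the range of the other. The log2 fold change of -0.99 (SE 0.14, edgeR adjusted p = 7.91e-05) was just under the 2-fold limit. It passed that limit without control 2 (-1.07), control 3 (-1.01), *Supt6*-KO 1 (-1.02) or *Supt6*-KO 4 (-1.03). With a correction for transcript length, however, it was -0.27 (edgeR adjusted p = 0.109).

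*Fos*, the founding member, did not pass the test. *Fos* (chr12:85473890-85477274) had 66.2, 26.8, 76.3, 39.1 and 25.0 CPM in the controls and 46.7, 39.1, 27.9 and 35.9 CPM in the *Supt6*-KO mice. All 4 *Supt6*-KO values fell within the control range, and controls 1 and 3 were the highest of all 9 mice. The log2 fold change was -0.32 (SE 0.32, edgeR adjusted p = 0.393), and a change of this size was not detectable at this spread. With 1 mouse left out in turn the value ranged from -0.478 to -0.07. *Fos* passed the test with library totals (edgeR adjusted p = 0.0189). Relative to the median of all genes, however, it was at -0.25 under TMM and -0.25 with library totals.

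*Fosl1*, which encodes FRA1, was the least determined of the family. *Fosl1* (chr19:5447698-5455938) had 3.66, 2.33, 1.47, 4.25 and 0.713 CPM in the controls and 2.59, 0.816, 1.33 and 7.76 CPM in the *Supt6*-KO mice. The highest value of all 9 was that of *Supt6*-KO 4, and the other 3 *Supt6*-KO mice lay within the control range. The log2 fold change was 0.35 (SE 0.63, edgeR adjusted p = 0.637), and without *Supt6*-KO 4 it was -0.65 (edgeR adjusted p = 0.299). Its estimated counts were not whole in any of the 9 mice, which marks reads shared with another gene, and *Ccdc85b* overlaps it on the other strand. *Ccdc85b* was at 17.7 ± 1.93 CPM (SD, n = 5) and 19.7 ± 3.60 CPM (SD, n = 4), so *Fosl1* values are uncertain.

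Within the Jun family *Junb* rose, *Jund* fell and *Jun* did not pass the test. *Junb*, which encodes a Jun protein that restrains keratinocyte inflammation in mouse skin, was higher in every *Supt6*-KO mouse. *Junb* (chr8:84976909-84978748) had 106, 87.8, 102, 92.5 and 64.6 CPM in the controls and 159, 123, 126 and 236 CPM in the *Supt6*-KO mice. *Supt6*-KO 4 was the highest of its group, and the lowest *Supt6*-KO mouse was above the highest control. On the log2 scale it changed by 0.83 (SE 0.21, edgeR adjusted p = 0.0039), under 2-fold, and 0.49 (edgeR adjusted p = 0.00314) without control 5 and *Supt6*-KO 4. It did not pass with library totals (0.19, edgeR adjusted p = 0.535) or with the length correction (0.45, edgeR adjusted p = 0.0773). Relative to the median of all genes, *Junb* was at 0.90 under TMM and 0.95 with library totals.

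*Jund* encodes the Jun protein that is present in most resting cells and is not an immediate early gene. *Jund* (chr8:70697739-70700616) had 182, 179, 138, 187 and 144 CPM in the controls and 109, 72.8, 59.2 and 80.3 CPM in the *Supt6*-KO mice. *Supt6*-KO 1 was nearest to the controls and still below all 5. The *Supt6*-KO mean was 48.4% of the control mean (log2 fold change -1.05, SE 0.18, edgeR adjusted p = 0.000305). It was close to the 2-fold limit, at -0.99 in DESeq2 and -0.93 without *Supt6*-KO 3, and its adjusted p stayed under 0.05 in both.

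*Jun*, which encodes c-Jun, did not pass the test. *Jun* (chr4:95049036-95052222) had 69.8, 62.4, 67.7, 81.2 and 106 CPM in the controls and 69.4, 68.3, 62.8 and 50.5 CPM in the *Supt6*-KO mice. The highest control was control 5 and the lowest *Supt6*-KO mouse was *Supt6*-KO 4, while the other 7 mice lay close together. Its log2 fold change was -0.30 (SE 0.17, edgeR adjusted p = 0.125), -0.07 without control 5 and *Supt6*-KO 4, and -1.02 (edgeR adjusted p = 0.000373) with library totals. Relative to the median of all genes, *Jun* was at -0.23 under TMM and -0.26 with library totals. In the GENCODE annotation *Jun*, *Jund* and *Junb* each overlap a gene on the opposite strand (*Junos*, *Gm11175* and *Prdx2*). The strand setting of the counting is not given in the sources used here, and *Junos* and *Gm11175* are not in the table used here. Estimated counts of *Jun*, *Junb* and *Jund* were whole in all 9 mice, and the RefSeq bounds of *Junb* and *Prdx2* do not overlap, so no shared reads were seen, while the part of antisense reads was not tested. *Prdx2*, a peroxide-reducing enzyme, was itself higher, at 308 ± 57.4 CPM (SD, n = 5) against 917 ± 270 CPM (SD, n = 4).

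*Batf*, the gene with the fewest counts of the 10 in controls, had the largest rise. It encodes a bZIP protein without an activation domain that pairs with Jun proteins in lymphocytes and dendritic cells. *Batf* (chr12:85686720-85709087) had 0.615, 0.520, 0.332, 0.297 and 0.611 CPM in the controls and 2.01, 1.39, 2.97 and 2.12 CPM in the *Supt6*-KO mice. The raw counts behind these values were 23, 19, 12, 11 and 24 in the controls and 48, 29, 65 and 59 in the *Supt6*-KO mice, and the groups did not overlap on either scale. Its log2 fold change of 2.15 (SE 0.30, edgeR adjusted p = 6.94e-05) rests on these few counts. With the length correction it was 1.04 (edgeR adjusted p = 0.0103) and with library totals 1.45 (edgeR adjusted p = 0.00177).

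Levels of immune cell markers are given beside *Batf*, whose level in whole skin depends on which cells are present. The 7 T cell markers summed to 33.1, 38.9, 40.4, 32.8 and 28.8 CPM in controls and to 22.9, 18.4, 18.4 and 16.8 CPM in *Supt6*-KO mice, with 1 called higher (*Cd5*) and 2 lower (*Cd3e* and *Cd3g*). *Cd3g*, a T cell receptor subunit with the highest CPM of them in controls, went from 15.4 to 2.46 CPM, and *Cd5* was the highest in *Supt6*-KO mice. Of 9 neutrophil markers tested, 7 were called higher and 1 lower (*Mpo*). Their sums were 9.65, 7.50, 7.23, 8.25 and 4.63 CPM in controls and 39.7, 37.0, 88.2 and 28.7 CPM in *Supt6*-KO mice, with *Cxcr2* the highest in CPM in controls and *Retnlg* by the *Supt6*-KO mean. *Ltf*, a granule protein gene, was at 0 in all 5 controls, *Ly6g* at 0 in 4 controls and *Supt6*-KO 2, and *Mpo* at 0 in *Supt6*-KO 2, 3 and 4. Macrophage markers summed to 156 ± 57.4 CPM (SD, n = 5) and 272 ± 28.1 CPM (SD, n = 4), with 4 of 8 called higher and *Csf1r* called lower. B cell markers summed to 0.375 ± 0.147 and 1.63 ± 0.514 CPM, with *Ms4a1* at 0 in all 5 controls, and those of dendritic and Langerhans cells to 659 ± 81.8 and 336 ± 126 CPM. The part of these cells in the *Batf* level was not tested.

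*Maff*, a small Maf protein that lacks an activation domain, had the smallest spread relative to its change. *Maff* (chr15:79346621-79359078) had 22.6, 21.4, 16.8, 20.9 and 14.6 CPM in the controls and 48.2, 47.4, 50.9 and 44.4 CPM in the *Supt6*-KO mice. Every *Supt6*-KO mouse had nearly the same level, far above the highest control. Its log2 fold change was 1.31 (SE 0.14, edgeR adjusted p = 8.48e-06). It fell short of 2-fold with library totals (0.61) and with the length correction (0.99), with adjusted p of 0.00301 and 8.67e-05 in edgeR.

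*Atf3*, a stress-induced bZIP factor that mostly represses, did not pass the test. *Atf3* (chr1:191170296-191183333) had 38.3, 20.2, 43.7, 19.9 and 12.7 CPM in the controls and 19.3, 23.0, 21.3 and 16.5 CPM in the *Supt6*-KO mice. The 4 *Supt6*-KO mice sat close together inside the wide control range. The log2 fold change was -0.43 (SE 0.32, edgeR adjusted p = 0.245), and -1.13 (edgeR adjusted p = 0.0064) with library totals. It ranged from -0.607 to -0.183 with 1 mouse left out in turn, and was -0.74 (edgeR adjusted p = 0.0616) with the length correction. Relative to the median of all genes, *Atf3* was at -0.36 under TMM and -0.37 with library totals.

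**Figure D2:**
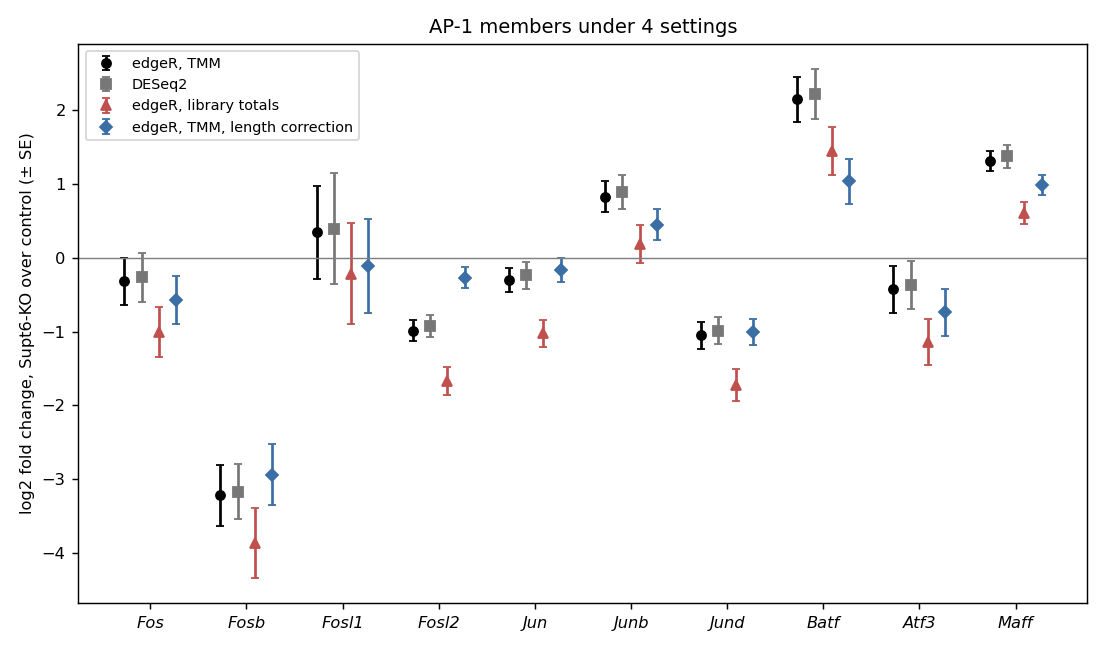
Log2 fold change of each AP-1 gene, *Supt6*-KO over control, with its SE under 4 settings (black, edgeR with TMM; grey, DESeq2; red, edgeR with library totals; blue, edgeR with TMM and a length correction). The red points lie below the black ones for every gene, *Fosb* is at -2.94 or lower throughout, and the blue point of *Fosl2* at -0.27 is nearest to 0 of its 4 points.

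The levels of different genes were compared per length, within each mouse, as TPM, a measure scaled by transcript length. In controls the order of mean TPM was *Jund* (102), *Junb* (93.4), *Jun* (43.6), *Fos* (40.5), *Fosl2* (37.8), *Atf3* (25.1), *Maff* (18.6), *Fosb* (16.3), *Fosl1* (2.82) and *Batf* (1.31). Neighbours held their order in all 5 controls for *Junb* above *Jun* and *Fosb* above *Fosl1* only, while *Jund* exceeded *Junb*, *Fosl2* exceeded *Atf3* and *Fosl1* exceeded *Batf* in 4 of 5. The order within the run from *Jun* to *Fosl2*, and from *Atf3* to *Fosb*, changed from mouse to mouse. In *Supt6*-KO mice the order was *Junb* (66.2), *Jund* (18.6), *Maff* (17.0), *Jun* (12.4), *Fos* (12.3), *Fosl2* (7.08), *Atf3* (6.85), *Batf* (2.13), *Fosl1* (1.60) and *Fosb* (0.704). *Junb* exceeded *Jund* in all 4 *Supt6*-KO mice, as did *Maff* over *Jun*, *Fos* over *Fosl2* and *Atf3* over *Batf*, and the remaining neighbours were not in the same order in every mouse. *Fosb* thus went from the eighth to the last place and *Maff* from the seventh to the third.

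Shares of the summed TPM of the 10 genes show the make-up of the AP-1 transcript pool in each mouse. *Junb* made up 24.6, 26.8, 25.5, 24.3 and 21.5% of the pool in controls and 40.7, 38.1, 40.2 and 54.4% in *Supt6*-KO mice. *Jund* made up 25.0, 32.5, 20.4, 29.0 and 28.5% in controls and 16.5, 13.4, 11.2 and 11.0% in *Supt6*-KO mice. The groups did not overlap for either gene, nor for *Maff* (mean 4.92% against 12.5%), *Fosl2* (9.84% against 5.00%), *Fosb* (4.14% against 0.451%) or *Batf* (0.348% against 1.55%). Taken by family, the 4 Fos genes held 25.1 ± 4.90% (SD, n = 5) in controls and 15.1 ± 1.18% (SD, n = 4) in *Supt6*-KO mice, with no overlap. The 3 Jun genes held 63.1 ± 6.39% and 65.7 ± 4.34%, with the groups overlapping. A larger share did not always go with a higher TPM. Mean TPM went from 93.4 in controls to 66.2 in *Supt6*-KO mice for *Junb* and from 18.6 to 17.0 for *Maff*, but from 1.31 to 2.13 for *Batf*. TPM carries no TMM scaling, whereas the folds do. These shares were computed from the same counts as the folds and are a description.

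**Figure D3:**
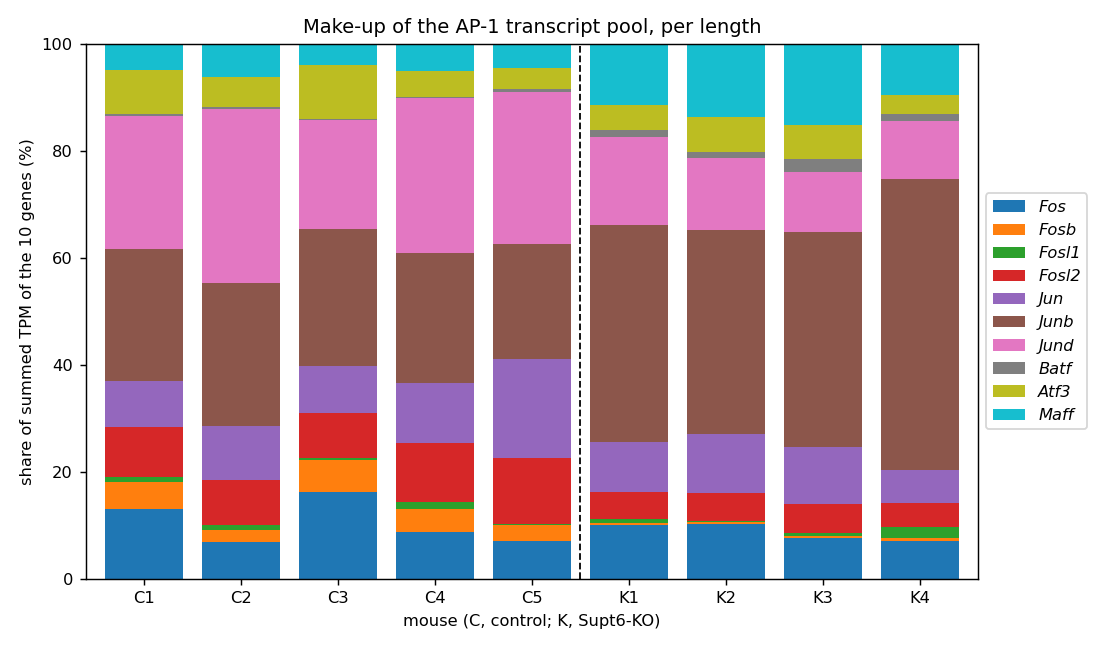
Stacked bars of each AP-1 gene's share, in percent, of the summed TPM of the 10 genes in each of 9 mice (C1 to C5, control; K1 to K4, *Supt6*-KO; dashed line between the groups). *Junb* takes 21.5 to 26.8% of the pool in controls and 38.1 to 54.4% in *Supt6*-KO mice, while *Jund*, *Fosl2* and *Fosb* narrow and *Maff* widens.

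A ratio of 2 genes within a mouse does not depend on the scaling between libraries, and 3 such ratios of counts were tested. The log2 ratio of *Junb* to *Jund* was -0.77, -1.03, -0.44, -1.01 and -1.16 in controls and 0.55, 0.76, 1.09 and 1.55 in *Supt6*-KO mice. It was below 0 in every control and above 0 in every *Supt6*-KO mouse. The difference was 1.87 (two-sided exact permutation p = 0.0159, the smallest that 5 mice against 4 allow, adjusted p = 0.0476 over the 3 ratios). Leaving out any 1 mouse gave differences of 1.681 to 2.015, and the groups stayed apart. The exact permutation p was each time the smallest that the fewer splits allow. The exact permutation adjusted p was 0.0857 to 0.107, or 0.0429 without control 5, where *Jun* to *Jund* was also at that limit. These adjusted values therefore cannot show a weaker difference. The ratio of *Jun* to *Jund* differed by 0.78 (exact permutation p = 0.0476, adjusted p = 0.0714), and by 0.95 without control 5 (exact permutation adjusted p = 0.0429). With any other mouse left out, its exact permutation adjusted p was 0.107 to 0.161. Without control 5 and *Supt6*-KO 4 together it was 0.0857. The ratio of *Fosl1* to *Fos* differed by 0.27 (exact permutation p = 0.746).

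Among mice of the same group, some members deviated together and others in opposite directions. After the mean of each group was subtracted from log2 CPM, the highest correlations over the 9 mice were *Fosl1* with *Junb* (r = 0.89), *Fos* with *Atf3* (0.86), *Fosb* with *Junb* (0.78) and *Fos* with *Fosb* (0.74). The lowest were *Jun* with *Junb* (-0.75) and *Jun* with *Fosl1* (-0.62). These are descriptions, since all values of a mouse share 1 library and its depth. For *Fos* and *Atf3* the pattern was that controls 1 and 3 were high and control 5 was low. Controls 1 and 3 also had the highest sums of hair follicle markers. These were 1506, 173, 549, 347 and 75.8 CPM in the controls and 16.4, 19.1, 19.8 and 17.2 CPM in the *Supt6*-KO mice, with all 8 markers called lower and *Krt71*, an inner root sheath keratin, the highest in CPM by the control mean and *Sox9* by the *Supt6*-KO mean. *Krt25* was at 0 in *Supt6*-KO 3, *Krt31* in *Supt6*-KO 2, and *Krt35* in *Supt6*-KO 1, 2 and 3. The part of hair follicle RNA in the AP-1 values was not tested.

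**Figure D4:**
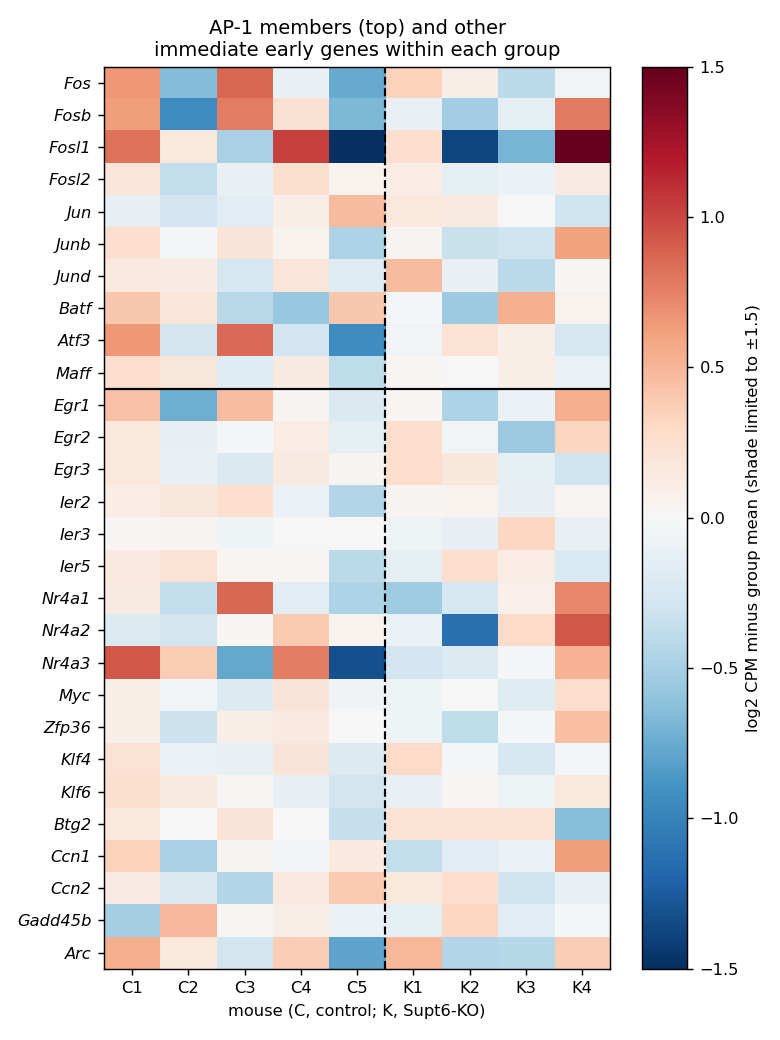
Log2 CPM minus the mean of the mouse's own group for the 10 AP-1 genes (above the line) and 18 other immediate early genes (below it), in 9 mice (C1 to C5, control; K1 to K4, *Supt6*-KO), red for above and blue for below, with shades limited to 1.5 on either side. *Fos*, *Fosb* and *Atf3* are red in C1 and C3 and blue in C2 and C5, and *Fosl1*, *Fosb* and *Junb* are red in K4.

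Among 13564 genes with a mean of at least 1 CPM, the gene most like *Fos* in these deviations was *Dusp1* (r = 0.97), which encodes a phosphatase that switches off MAP kinases, followed by *S100a3* (0.91) and *Arl15* (0.89). The most like *Fosl1* were *Prkx* (0.97), *Limk2* (0.96) and *Ip6k3* (0.95). *Junb* was matched by *Ints12* (0.98), *Syt12* (0.96) and *Pigm* (0.96). *Jund* was matched by *Rnf220* (0.99), *Upf3a* (0.97) and *Atg13* (0.97). The genes nearest to *Atf3* were *Gnmt* (0.98) and the hair keratin-associated genes *Krtap16-3* (0.97) and *Krtap19-5* (0.97). Picked as the highest of so many genes over 9 mice, these values carry no test.

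Upstream of AP-1, the 8 factors known to act on the *Fos* promoter had 0 genes called higher and 2 called lower, with a median log2 fold change of -0.66, and their 25% called lower was near the 24.9% of all genes. The called genes were those of the actin-regulated coactivators of serum response factor. *Mrtfb* went from 25.2 ± 5.60 CPM to 7.69 ± 0.334 CPM (log2 fold change -1.71, SE 0.18), and *Mrtfa* from 21.3 ± 3.68 to 6.78 ± 1.00 CPM (-1.65, SE 0.17). *Srf* itself fell by under 2-fold (-0.76, SE 0.16, edgeR adjusted p = 0.00138). In all, 6 of the 8 fell and 0 rose at any size, where 36.8% and 34.1% of all genes did. *Creb1*, whose protein binds the CRE, was at 44.7 ± 1.40 CPM and 46.5 ± 11.6 CPM (log2 fold change 0.06, edgeR adjusted p = 0.739).

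Of 25 MAP kinase cascade genes, 3 were called higher and 3 lower (median -0.17), or 12% each way against 20.9% and 24.9% of all genes. At any size 10 rose and 10 fell, shares near the 34.1% and 36.8% of all genes. *Map3k8*, which encodes the kinase TPL2 that activates MEK, went from 16.8 to 72.7 CPM (log2 fold change 2.11, SE 0.33). *Mapk13*, which encodes p38δ, went from 139 to 411 CPM (1.56, SE 0.27), and *Map2k1*, which encodes MEK1, from 41.3 to 86.8 CPM (1.07, SE 0.16). The genes called lower were *Map3k1* (61.0 to 19.9 CPM, log2 fold change -1.61, SE 0.17), which encodes a kinase upstream of JNK, *Map3k11* (-1.03, SE 0.21) and *Mapk7* (-1.01, SE 0.17). *Mapk8*, which encodes JNK1, rose by under 2-fold (0.93) and *Mapk9*, which encodes JNK2, fell by under 2-fold (-0.96). Calls near the limit moved with single mice. *Map2k1* was at 0.87 without *Supt6*-KO 4, and the count called lower was 6 without that mouse and 1 without control 4 or without *Supt6*-KO 2. Over all 17 alternatives *Mapk13* lost its call in 2 and *Map3k1* in 1. *Map2k1* and *Map3k11* lost theirs in 5 each and *Mapk7* in 6.

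Phosphatases of the DUSP family, which inactivate MAP kinases, had 3 of 11 genes called higher (27.3%) and 2 lower (18.2%), with a median of -0.22. These shares were near the 20.9% and 24.9% of all genes. *Dusp14* went from 71.7 to 205 CPM (log2 fold change 1.52, SE 0.19) and *Dusp5* from 7.43 to 17.4 CPM (1.23, SE 0.18). Both were under 2-fold with library totals and with the length correction, and each of these settings called 1 gene of the family higher. *Dusp8* went from 13.6 to 2.88 CPM (-2.24, SE 0.19) and *Dusp10*, whose protein acts on JNK and p38, from 4.72 to 1.59 CPM (-1.57, SE 0.19). *Dusp9* was called higher (2.68, SE 0.70), but most of this lay in *Supt6*-KO 4, and without it the value was 1.08. Of 8 genes for turnover of Jun and Fos proteins, 0 were called higher and 2 lower (25%, again near the background), with a median of -0.24. These were *Nedd4*, a ubiquitin ligase gene (389 to 105 CPM, log2 fold change -1.89, SE 0.20), and *Trib2*, a pseudokinase gene (19.6 to 6.70 CPM, -1.55, SE 0.17). *Fbxw7*, whose product marks c-Jun for degradation, fell by under 2-fold (-0.71, SE 0.12, edgeR adjusted p = 0.000201).

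Other immediate early genes moved in both directions, with 4 of 18 called higher and 7 called lower (median -0.56), against 20.9% and 24.9% of all genes. *Ier3* went from 15.4 ± 0.422 CPM to 58.8 ± 9.20 CPM (log2 fold change 1.94, SE 0.12), *Ier5* from 41.4 to 142 CPM (1.78, SE 0.15) and *Gadd45b* from 31.4 to 79.0 CPM (1.33, SE 0.18). *Egr2* went from 34.4 ± 3.18 CPM to 12.4 ± 3.12 CPM (-1.47, SE 0.18), and the orphan nuclear receptor genes *Nr4a1* (-1.41, SE 0.32) and *Nr4a2* (-1.37, SE 0.34) were also called lower. At any size, 6 of the 18 rose and 11 fell, where 34.1% and 36.8% of all genes did. With library totals 2 were called higher and 11 lower.

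The 22 other bZIP genes that can pair with AP-1 proteins or bind related sites were mostly not called. Of these, 2 were called higher and 2 lower (9.09% each, below the share of all genes), with a median of -0.12. *Atf4*, which encodes the main factor of the integrated stress response, went from 185 ± 32.2 CPM to 564 ± 88.7 CPM (log2 fold change 1.61, SE 0.17). *Nfe2l2*, which encodes the antioxidant regulator NRF2, a partner of small Maf proteins, went from 60.4 ± 1.99 CPM to 154 ± 39.0 CPM (1.35, SE 0.15). *Atf7*, a relative of ATF2, went from 49.6 to 8.71 CPM (-2.50, SE 0.24) and *Bach2*, a repressor that also pairs with small Maf proteins, from 3.65 to 0.721 CPM (-2.34, SE 0.24). The other small Maf genes did not follow *Maff*, as *Mafk* fell by under 2-fold (-0.44, SE 0.11, edgeR adjusted p = 0.00349) and so did *Mafg* (-0.50, SE 0.19, edgeR adjusted p = 0.0375); with library totals *Maff* still rose.

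Among 22 textbook AP-1 target genes, 14 were called higher (63.6%, against 20.9% of all genes) and 1 lower, with a median log2 fold change of 2.07 against -0.07 for all genes. Several of these genes were already known from earlier results of these data, and all are also regulated by other factors. *Sprr1b*, a cornified envelope gene, went from 4.91 ± 2.25 CPM to 1136 ± 771 CPM (log2 fold change 7.85, SE 0.59). *Il1b*, which encodes the cytokine IL-1β, went from 0.561 ± 0.262 CPM to 76.6 ± 33.6 CPM (7.09, SE 0.38), and *Mmp13*, a collagenase gene, from 0.362 ± 0.328 CPM to 15.5 ± 3.62 CPM (5.41, SE 0.47). The gene called lower was *Lor*, which encodes the envelope protein loricrin, at 1156 ± 284 CPM and 492 ± 222 CPM (-1.23, SE 0.35). Without *Supt6*-KO 4 the value of *Lor* was -0.95. The highest edgeR adjusted p among the genes named as called in these 7 lists was 0.00862, for *Lor*.

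**Figure D5:**
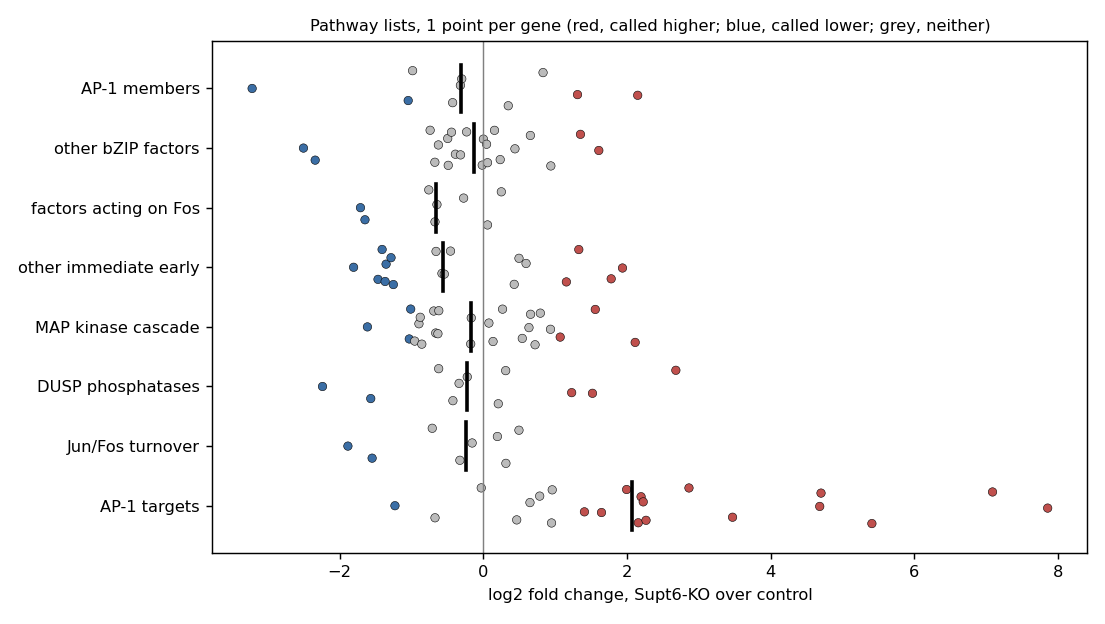
Log2 fold change, *Supt6*-KO over control, of every gene in the AP-1 family and 7 related lists, with 1 point per gene (red, called higher; blue, called lower; grey, neither) and a black bar at the median of each list. The medians of 7 rows lie between -0.66 and -0.12, while that of the AP-1 target genes is 2.07.

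Epidermal markers are given last. Suprabasal keratinocyte markers summed to 23636, 23999, 23934, 24635 and 22133 CPM in controls and 72859, 82217, 79194 and 30381 CPM in *Supt6*-KO mice, with 4 of 7 called higher. *Krt10* was the highest in CPM in controls and *Calm4* by the *Supt6*-KO mean. *Calm4* went from 2465 to 28623.5 CPM, with 8841 CPM in *Supt6*-KO 4. *Krt10* did not pass the test (edgeR adjusted p = 0.555). *Sbsn* was below every control in all 4 *Supt6*-KO mice and did not pass either (edgeR adjusted p = 0.184). *Supt6*-KO 4, the mouse with the highest *Junb*, *Fosb* and *Fosl1* of its group, had the lowest suprabasal sum of its group and the lowest value of each suprabasal marker. Basal markers summed to 11714, 12147, 11643, 13313 and 11841 CPM in controls and 8402, 5801, 7014 and 14105 CPM in *Supt6*-KO mice, with 4 of 7 called lower. The basal sum of *Supt6*-KO 4 was above every control through *Krt14* alone (9613 CPM), while its other 6 basal markers, and the sums of the other 3 *Supt6*-KO mice, were below every control. The 6 skeletal muscle markers summed to 3745 ± 536 and 952 ± 204 CPM, with 5 called lower. The 6 fibroblast markers summed to 5670 ± 2931 and 2771 ± 790 CPM, with the groups overlapping and 2 called lower. The part of this change in tissue make-up in the AP-1 values was not tested.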

How the data were processed

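Bulk RNA-Seq of skin from 5 control and 4 *Supt6*-KO mice was analysed. Per the labels and the study's methods, paired reads were aligned to mm10 with Bowtie2 2.3.4.3 and quantified with RSEM 1.3.1. The authors made estimated counts per gene with RSEM and deposited them for all 9 mice without normalization between mice. The authors also deposited TPM, the length-scaled abundance of RSEM, for 6 of the mice. The annotation release is not given in the sources used here. About 9% of estimated counts were not whole, and all were rounded before testing. Of 17943 gene identifiers, 17911 were matched to RefSeq on GRCm38.p6. Depth was 29627341 to 30967107 counts per mouse.

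Genes with a sum of at least 10 counts were compared with edgeR 4.0.16 (quasi-likelihood test, TMM, no covariates, R 4.3.3), and p-values were adjusted by Benjamini-Hochberg over the 16426 genes kept. A call needed an adjusted p under 0.05 with a log2 fold change of 1 or more in size. TPM was rebuilt for all mice from the effective lengths implied by the deposited counts and TPM. In the 6 mice 97.8 to 99.7% of genes were within 0.1 log2 of the deposited value. The lengths came from these same 6 mice, so this does not check the rebuilt TPM of *Supt6*-KO 1, 2 and 3. Ratios used 0.5 added counts and an exact permutation test over 126 splits. Within-group patterns used genes with a mean of at least 1 CPM. Promoter windows are from RefSeq. Fold changes and counts of calls were recomputed with DESeq2 1.42.0, with upper-quartile factors or library totals, with other count filters, with a length correction, with a replicate block and with each mouse left out. The ratios were recomputed with other added counts and with mice left out. Levels per length, shares and within-group patterns were computed in 1 way. The tests were also tried on simulated data. Python 3.11.15 was used for tables.

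Named genes are the 10 members, *Supt6*, and from each of 7 pathway lists up to 3 called genes per direction with the largest change, separate groups and a mean of 1 CPM or more where higher, and for 5 members the 3 genes most alike in pattern. *Srf*, *Creb1*, *Mapk8*, *Mapk9*, *Fbxw7*, *Mafk*, *Mafg*, *Prdx2*, *Ccdc85b* and the named markers were chosen after their values were seen. The members and lists were chosen with earlier results of these data known.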

Additional observations from a re-analysis of the deposited data

Results flagged for a closer look

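Each group of 4 or 5 mice was searched for a mouse far from the rest, judged by its gap to the nearest mouse over the range of the group. This was done for 88 groups, of which 6 stood out, where chance gives about 1 in 20, or 4.4. None of these 6 was an AP-1 member. *Supt6*-KO 3 had 72.6 CPM of *Ier3* (group median 54.6). *Dusp9* stood out at 0.27 CPM in control 4 (group median 0.609) and at 10.5 CPM in *Supt6*-KO 4 (group median 1.38). *Mmp13* stood out at 0.931 CPM in control 2 (group median 0.267) and at 20.9 CPM in *Supt6*-KO 2 (group median 13.8). *Lor* was at 162 CPM in *Supt6*-KO 4 (group median 583).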

How the results depend on the processing

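*Fosb* and *Batf* kept their direction and call under all 17 alternatives. Library totals, with a median shift of -0.76 over all genes tested, called 1 member higher and 6 lower, 1470 genes higher and 6802 lower (17.8% of calls higher, against 45.6%), and 16 higher and 46 lower in the pathway lists; single values were *Fos* -1.005, *Jun* -1.021, *Atf3* -1.134, *Fosl2* -1.672, *Fosl1* -0.215 and *Maff* 0.613. The length correction, made because log2 fold change fell by 1.64 per log10 of length over 15956 genes, called 1 member higher and gave *Maff* 0.986, *Supt6* -0.81 and *Fosl1* -0.108. DESeq2 called only *Fosb* lower (1 member), as *Jund* at -0.987 was under the 2-fold limit. *Fosl2* was -1.071 with upper-quartile factors and -1.037 where each mouse had to reach 10 counts. With 1 mouse left out in turn, members called lower numbered 1 to 3. *Jund* ranged from -1.229 to -0.931, *Fosl2* from -1.066 to -0.922 and *Fosl1* from -0.651 to 0.644. The *Junb* to *Jund* ratio differed by 1.681 to 2.015, *Jun* to *Jund* by 0.646 to 0.951 and *Fosl1* to *Fos* by -0.356 to 0.756. The removal of control 5 and *Supt6*-KO 4 together, an alternative chosen after seeing the data, gave *Fosl1* -0.882, *Fosl2* -1.017, and ratio differences of 1.612 for *Junb* to *Jund* and -0.548 for *Fosl1* to *Fos*. The cause of these shifts was not tested.

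The labels tie mice with the same replicate number by that number alone. Their deviations correlated at -0.02, 0.24, 0.22 and 0.05 in the 4 pairs. The mean was 0.12, against -0.02 for pairs with different numbers. With the replicate block *Fosl1* was -0.236, and 3134 genes were called higher and 3834 lower. No AP-1 member changed its call under the block. For *Batf*, at 11 to 24 counts per control, depth limits the precision of the fold.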
